A study of Mus musculus with 72 samples.

Results

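The comparison described here is that of the liver of 129S2 fetuses with the liver of C57BL/6J fetuses at embryonic stage E14.5. It rests on 6 of the 72 arrays of the series, 3 for each strain, taken by the strain, stage and tissue in their sample labels. The wider series hybridised brain and liver of 3 inbred mouse strains at E14.5 and at postnatal days 1, 7 and 90 (P1, P7 and P90) to Affymetrix arrays. All animals were males without any treatment or engineered allele, and the fetuses had been sexed by a molecular test. The fetuses were the offspring of bought breeding stock, from The Jackson Laboratory for C57BL/6J and DBA/2J and from Charles River, France, for 129S2, so strain and supplier cannot be told apart. The 3 DBA/2J arrays of E14.5 liver belong to the same normalization set and entered the fit for the spread between arrays. Each array held RNA of whole liver, and the labels do not say whether the 3 samples of a strain shared a litter, so the p-values measure the spread between these samples only.

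At this stage the liver is the main site of blood formation. Erythroid cells at all steps of maturation, megakaryocytes, myeloid precursors and macrophages lie among hepatoblasts, the common precursors of hepatocytes and bile duct cells, with stellate cells and sinusoidal endothelium between them. The enzymes of the adult hepatocyte, among them those of the urea cycle and of drug metabolism, are switched on from this time to after birth. In bulk tissue of this kind, fewer cells of a type and less RNA per cell cannot be told apart.

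Levels are the authors' log2 values, and a difference is the 129S2 mean minus the C57BL/6J mean on that log2 scale. The medians of the 9 arrays were 6.73 to 6.76, and arrays correlated at r = 0.989 to 0.996 within a strain and 0.984 to 0.992 between strains, over all probe sets. The tissue label was borne out by markers of hepatoblasts and of erythroid cells. Albumin (Alb) read 14.60 to 14.73 on every array, alpha-fetoprotein (Afp) 14.39 to 14.56, and Klf1, the erythroid transcription factor, 12.88 to 13.48. Hba-a1, an adult alpha-globin, went the other way at 5.59 to 5.80, under the median of the set on all 9 arrays. The cause was not tested. Markers of neighbouring organs, Ptf1a for pancreas, Cdx2 for gut and Sftpc for lung, stayed under the median of the set on all 9 arrays. The arrays of one strain differed in connective-tissue genes: the mean level of 22 stellate and mesenchymal genes was 10.14 in 129S2 replicate 1 against 9.18 and 8.76 in the other 129S2 arrays, and 8.86 to 8.92 in C57BL/6J. Without 129S2 replicate 1, 9 of the 126 called genes chosen for naming lost their call, as given beside each, and none of the 126 moved by over 1.5 times.

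A gene was called where limma's adjusted p was under 0.05 and the difference at least 1.5-fold. Of 12114 genes tested, 477 were called, which is 3.94%. In 129S2, 209 were higher (1.73%) and 268 were lower (2.21%). Without 129S2 replicate 1 the count was 468, of which 407 were among the 477. The difference reached 2-fold in 141 called genes, 52 higher and 89 lower, and 4-fold in 24, 9 higher and 15 lower. In all 477 called genes the 3 arrays of each strain did not overlap, which over all genes tested was so in 32.0%. The median difference over all genes tested was 0.04, with quartiles of -0.09 and 0.17, so more genes lay above 0 than below. In 81 called genes the lower of the strain means lay under the set median of 6.74, where the size of a difference depends on the background of the array. Of the called genes, 155 had at least 1 further tested probe set. In 143 genes at least 1 of these differed in the same direction, and in 63 (40.6%) at least 1 was itself called in that direction. The arrays' probes were designed on a reference sequence, and the part of strain sequence differences under the probes was not tested.

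**Figure D1:**
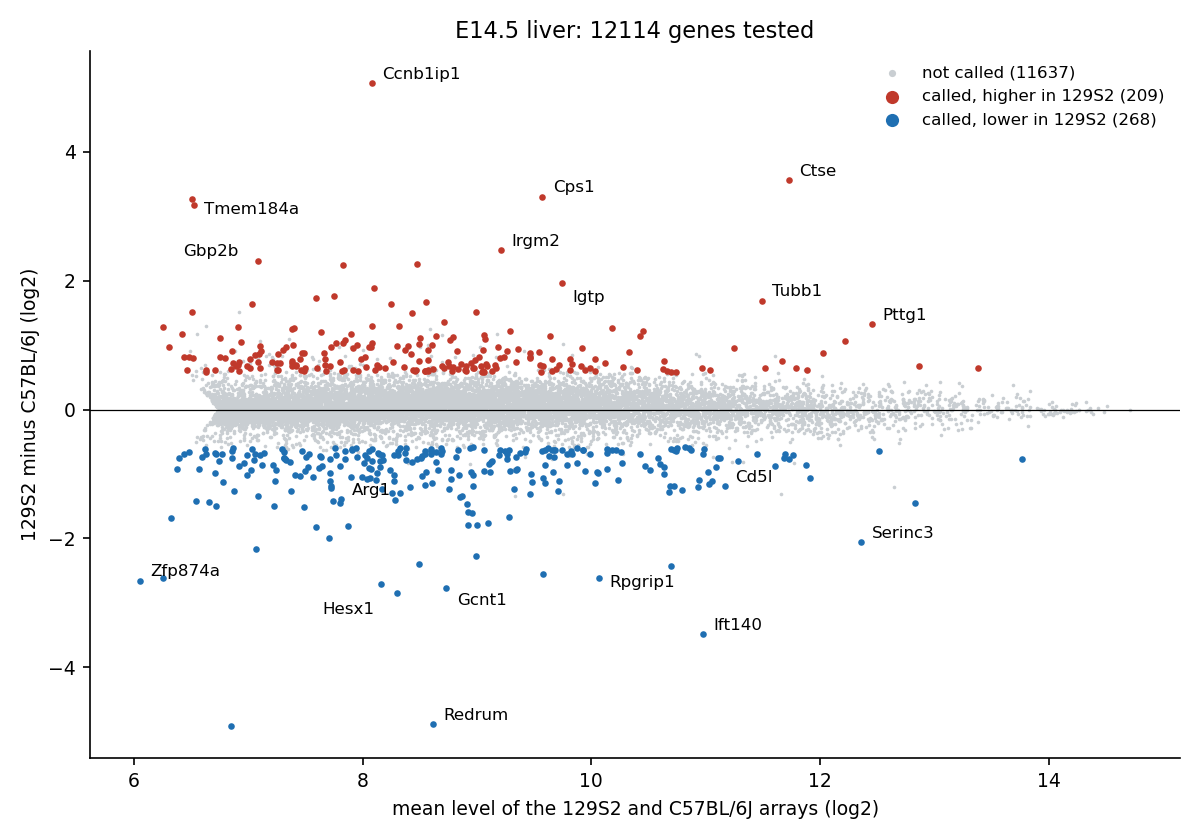
Difference between 129S2 and C57BL/6J (log2, vertical) against the mean level of the 6 arrays (log2, horizontal) for the 12114 genes tested in E14.5 liver. Red points are the 209 genes called higher and blue points the 268 called lower in 129S2; the farthest named genes are Ccnb1ip1 at 5.07 and Redrum at -4.88.

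Among the genes highest in 129S2 were a meiotic ubiquitin ligase, an aspartic protease and the first enzyme of the urea cycle. Ccnb1ip1, which encodes a ligase known from meiotic crossing over, read 10.65, 10.66 and 10.53 in 129S2 and 4.75, 5.87 and 6.01 in C57BL/6J. The difference was 5.07 ± 0.27 (SE, n = 3 arrays a strain; limma adjusted p = 2e-06), and since C57BL/6J lay under the set median its fold of 33.6 holds for this scale only. Ctse, the endolysosomal protease cathepsin E, read 13.50, 13.51 and 13.50 against 9.80, 9.94 and 10.10, a difference of 3.56 ± 0.09 (adjusted p = 2.64e-08). A second Ctse probe set differed by -2.78, so the direction for the gene depends on the probe set, and the mean of its probe sets, at 0.39, was not called (adjusted p = 0.11). Cps1, the mitochondrial synthase of carbamoyl phosphate, read 11.61, 10.98 and 11.08 against 8.04, 7.85 and 7.86. Its difference of 3.31 ± 0.17 (adjusted p = 1.73e-06) was a fold of 9.9, and the lowest 129S2 array was far above the highest C57BL/6J array.

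Further genes of the upper end were Tmem184a with a difference of 3.17 and Gdpd1, a lysophospholipase of the phosphodiesterase family, with 2.26, while its second probe set was called at 1.33. Hddc3, a nucleotide hydrolase of the HD-domain family, was higher by 2.25, and Pik3ap1, the adaptor between B-cell receptor signalling and phosphoinositide kinase, by 1.89. Adamdec1, a secreted metalloprotease-like protein, was higher by 1.76 and Abhd1 by 1.73. Hddc3, Abhd1, Tmem184a and Ccnb1ip1 had a C57BL/6J mean under the set median. In the 3 DBA/2J arrays, measured in the same set, Ccnb1ip1 had a mean of 10.51, Ctse of 13.28, Tmem184a of 7.79, Gdpd1 of 9.33 and Hddc3 of 9.29, close to 129S2, while Abhd1 at 6.68 was close to C57BL/6J and Cps1 at 9.07 lay between the others.

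The genes lowest in 129S2 included the long non-coding RNA Redrum, Ift140 and Serinc3. Redrum, a long non-coding RNA of erythroid maturation, read 6.20, 6.14 and 6.20 in 129S2 against 11.12, 11.16 and 10.89 in C57BL/6J, a difference of -4.88 ± 0.19 (adjusted p = 2.71e-07), with the 129S2 mean under the set median. Ift140, a subunit of the retrograde transport complex of cilia, read 9.31, 9.18 and 9.21 against 12.84, 12.62 and 12.69, a difference of -3.48 ± 0.11 (adjusted p = 6.44e-08). Serinc3, a membrane protein with several passes, was represented by 6 probe sets: the main one read 11.55, 11.37 and 11.07 against 13.40, 13.46 and 13.29, a difference of -2.05 ± 0.12 (adjusted p = 3.77e-06). All 5 other probe sets of Serinc3 were called lower too, with a median difference of -3.08. For Redrum, Ift140 and Serinc3, picked from the called genes without overlap, no 129S2 array came near the C57BL/6J range.

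Of the remaining genes at the lower end, Hesx1, a homeobox repressor of the pituitary, differed by -2.85, Gcnt1, which branches O-glycans, by -2.77 and Mid1, a microtubule-bound ubiquitin ligase, by -2.70. Rpgrip1, a protein of the photoreceptor cilium, differed by -2.62, Slc6a20a, a transporter of proline, by -2.61, and Cd59a, the inhibitor of the complement membrane attack complex, by -2.56. C1qtnf12, a secreted relative of adiponectin, differed by -2.43 and 2 of its 3 other probe sets were called lower. Ang, the ribonuclease angiogenin, differed by -2.39, Timd2, a receptor for heavy-chain ferritin, by -2.27, and the RNA-binding protein Taf15 by -2.16. The second probe sets of Gcnt1, Cd59a, Ang and Timd2 were also called lower, at -1.56, -1.62, -2.28 and -1.50. DBA/2J sided with 129S2 in some of these genes and with C57BL/6J in others: its means were 9.17 for Ift140, 7.14 for Gcnt1, 7.39 for Ang and 5.79 for Taf15, but 10.31 for Redrum, 10.20 for Hesx1, 11.58 for Cd59a and 13.21 for Serinc3.

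**Figure D2:**
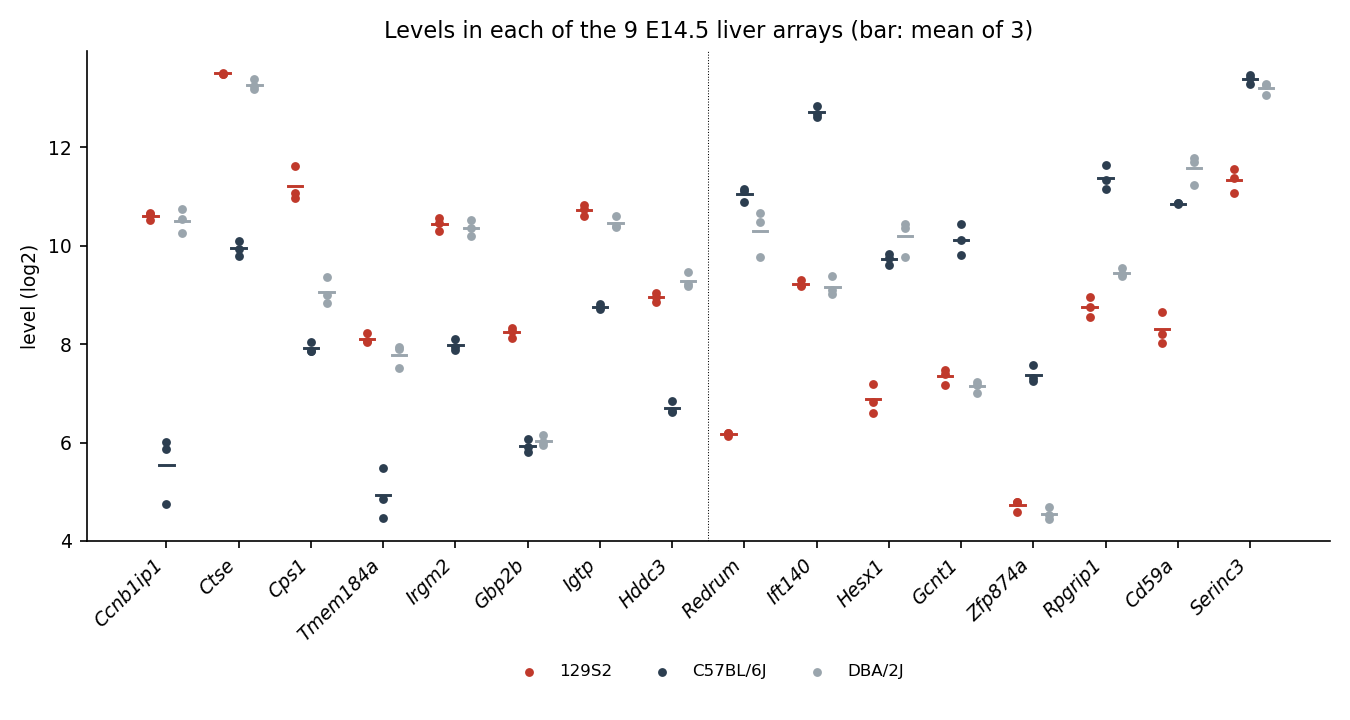
Level (log2) of 16 of the genes with the highest and lowest differences in each of the 9 E14.5 liver arrays; points are arrays and bars the means of 3. The genes were picked from called genes in which 129S2 and C57BL/6J do not overlap. Left of the dotted line the 129S2 arrays therefore lie above all C57BL/6J arrays and right of it below them, while DBA/2J takes either side.

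The immunity-related GTPases moved in both directions: Irgm2 and Igtp were higher in 129S2 while Irgm1, a regulator of the same family named after its value was seen, was lower. These proteins, with the guanylate-binding proteins, are made in response to interferons and act on membranes around intracellular pathogens.

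The 250 bases before the starts of Irgm2 and Igtp, neighbours that were both higher in 129S2, are shown from RefSeq (GRCm38.p6, both on the + strand), which gives the reference sequence and not that of 129S2. Irgm2 lies at chr11:58214727-58214976 and Igtp at chr11:58199306-58199555; capitals mark the longest run of letters that both windows hold, 55 bases, beginning 215 bases before the start of Irgm2 and 181 before that of Igtp.
Irgm2: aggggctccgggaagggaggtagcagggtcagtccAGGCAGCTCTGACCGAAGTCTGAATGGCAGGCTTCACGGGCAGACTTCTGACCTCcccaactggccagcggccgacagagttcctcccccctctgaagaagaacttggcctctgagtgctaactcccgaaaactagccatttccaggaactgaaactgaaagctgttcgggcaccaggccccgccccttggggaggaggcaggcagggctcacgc
Igtp: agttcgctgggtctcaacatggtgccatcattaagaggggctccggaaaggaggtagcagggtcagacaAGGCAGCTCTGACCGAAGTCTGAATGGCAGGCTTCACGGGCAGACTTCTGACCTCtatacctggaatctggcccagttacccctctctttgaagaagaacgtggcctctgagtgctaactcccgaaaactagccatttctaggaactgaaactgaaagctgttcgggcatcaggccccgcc
Searched on both strands, this run is in 2 of the 32851 windows of the same length in the table (0.00609%), those of Irgm2 and Igtp; it is a description of the reference letters and no site.

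Irgm2 read 10.31, 10.47 and 10.57 in 129S2 and 7.95, 7.87 and 8.10 in C57BL/6J, a difference of 2.47 ± 0.11 (adjusted p = 4.54e-07) or 5.56-fold. Igtp, its neighbour in the genome, read 10.82, 10.61 and 10.75 against 8.81, 8.76 and 8.71, a difference of 1.97 ± 0.09 (adjusted p = 5.89e-07). In both genes the strains were separated by well over the spread of either. Gbp2b, a guanylate-binding protein, read 8.27, 8.12 and 8.32 against 5.90, 5.80 and 6.08, a difference of 2.31 ± 0.10 (adjusted p = 4.25e-07), with C57BL/6J under the set median. DBA/2J had means of 10.37 for Irgm2 and 10.46 for Igtp but 6.04 for Gbp2b.

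Of the list of Trim30, Gbp and related genes, 11 of 26 passed the filter on low values; 3 were higher and 4 were lower in 129S2, against 1.73% and 2.21% of all genes, and the median was 0.02. Trim34a, of the tripartite-motif cluster, was lower by 1.82 on the log2 scale (difference -1.82 ± 0.11, adjusted p = 5.82e-06), and Trim30a, a brake on innate signalling, differed by -0.89 ± 0.13 (adjusted p = 0.00203), with its second probe set at -0.97. Irgm1 read 8.77, 9.01 and 8.98 against 9.55, 9.69 and 9.45, a difference of -0.64 ± 0.09 (adjusted p = 0.00196). Iigp1, a GTPase that Irgm proteins restrain, differed by -0.64, a call lost without 129S2 replicate 1 or 2 or C57BL/6J replicate 1 or 2 (adjusted p = 0.0531 to 0.104) and with the spread of all 36 liver arrays (0.196). Levels of Gbp7 and Gbp2 differed by 0.02 and 0.19 and were not called. The number of lower genes was 2 without 129S2 replicate 1 and 2 without C57BL/6J replicate 2.

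Of the interferon response list, 27 of 37 genes passed the filter; 8 were called lower in 129S2 and none higher, against 2.21% and 1.73% of all genes. The median was -0.15, and 8 of the 27 had a difference above 0. Isg20, an exonuclease against viral RNA, read 8.79, 8.73 and 8.91 against 10.29, 9.93 and 10.16, a difference of -1.32 ± 0.12 (adjusted p = 0.000101). Irf9, the DNA-binding subunit of the transcription complex that interferons activate, read 7.46, 7.43 and 7.72 against 8.74, 8.60 and 8.45, a difference of -1.06 ± 0.13 (adjusted p = 0.000659). As in all 477 called genes, the strains did not overlap in either gene, which was so in 32.0% of all genes tested. Ifih1, the sensor of long double-stranded RNA, differed by -0.77 ± 0.11 (adjusted p = 0.00156), Bst2, the tetherin that holds budding virus, by -1.09 ± 0.21 (adjusted p = 0.00987), and Rtp4, a chaperone-like interferon-induced protein, by -1.10 ± 0.23 (adjusted p = 0.0134). Bst2 lost its call without 129S2 replicate 2 (adjusted p = 0.0512) or C57BL/6J replicate 1 (0.05), and Rtp4 without either of these (0.0644 and 0.0643) or C57BL/6J replicate 2 (0.0524). Ifitm3, a membrane protein that blocks viral entry, differed by -0.87; its call was lost in 4 of the 6 fits that left out an array, those without 129S2 replicates 2 or 3 or C57BL/6J replicates 1 or 2 (0.0513 to 0.0765). The count of 8 became 3 without 129S2 replicate 2 and 3 without C57BL/6J replicate 1, and 6 or 7 without any of the other 4 arrays. With the replicate number as a block it was 9, the added gene being Ifi27 (difference -0.95; adjusted p = 0.00374 with the block and 0.0628 without). The mean level of the list was 8.18 to 8.37 on the 129S2 arrays and 8.49 to 8.67 on the C57BL/6J arrays.

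The Ifi200 cluster of interferon-inducible DNA sensors moved in both directions. Ifi202b, the member that lacks a signalling domain, was higher by 1.17 ± 0.10 (adjusted p = 4.58e-05), with C57BL/6J under the set median. Mndal was lower, with a difference of -0.88 ± 0.13 (adjusted p = 0.00236) and -0.76 in its second probe set. DBA/2J lay outside both strains, at a mean of 8.95 for Ifi202b and 6.06 for Mndal. Of the 15 listed genes 3 passed the filter. Among 17 tested genes of antigen presentation, H2-T24 was called higher at 0.73 and the immunoproteasome subunit Psmb8 lower at -0.61. Of all genes tested 1.73% were called higher and 2.21% lower. The H2-T24 call was lost without any of the 6 arrays other than C57BL/6J replicate 1 (adjusted p = 0.0524 to 0.112), and that of Psmb8 without 129S2 replicate 1 or 2 or C57BL/6J replicate 1 or 3 (0.0708 to 0.118), with the spread of all 36 liver arrays (0.144) and, by its size of -0.58, with array weights.

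Of the macrophage and Kupffer list, 22 of 25 genes passed the filter; 9 were called lower in 129S2 and none higher, against 2.21% and 1.73% of all genes. The median was -0.38, 3 had a difference above 0, and 15 of the 22 did not overlap between the strains, against 32.0% of all genes. Cd5l, the secreted inhibitor of macrophage apoptosis, read 10.38, 10.65 and 10.68 in 129S2 against 11.64, 11.70 and 11.95 in C57BL/6J, a difference of -1.19 ± 0.17 (adjusted p = 0.00172). Lyz2, the myeloid lysozyme, read 10.53, 10.55 and 10.55 against 11.70, 11.54 and 11.29, a difference of -0.97 ± 0.14 (adjusted p = 0.00193). Fcgr3, a low-affinity receptor for immunoglobulin G, differed by -1.01 ± 0.16 (adjusted p = 0.00316) and Aif1, the cytoskeletal protein IBA1, by -0.80 ± 0.12 (adjusted p = 0.00294). These 4 calls held whichever array was left out.

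The genes of complement C1q were called more weakly: C1qa differed by -0.74 (adjusted p = 0.0285), C1qb by -0.83 (0.0401) and C1qc by -0.67 (0.0214). The calls of C1qa and C1qc were lost whichever of the 6 arrays was left out (adjusted p = 0.0569 to 0.105 and 0.0539 to 0.0729). That of C1qb was lost without any array but 129S2 replicate 1 (0.0557 to 0.147) and with every probe set tested on its own (0.0588). The count of 9 fell accordingly to 6 without 129S2 replicate 1, to 5 without 129S2 replicate 3 or C57BL/6J replicates 1 or 2, and to 4 without 129S2 replicate 2 or C57BL/6J replicate 3. The median of the list moved less, from -0.41 to -0.34 over these fits. Its mean level was 9.17 to 9.24 on the 129S2 arrays, 9.62 to 9.70 on the C57BL/6J arrays and 9.20 to 9.62 on the DBA/2J arrays. The markers did not move alike: Clec4f, which defines resident Kupffer cells, was named after its value was seen and differed by -0.01 ± 0.14 (adjusted p = 0.971).

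Of 24 listed genes of neutrophils and their precursors 14 passed the filter; 4, all for granule proteins, were called lower and none higher, against 2.21% and 1.73% of all genes, with a median of -0.81 and 13 of 14 differences below 0. Ctsg, the serine protease cathepsin G, read 9.64, 9.77 and 9.66 against 10.80, 10.96 and 10.57, a difference of -1.09 ± 0.19 (adjusted p = 0.00554). Camp, the antimicrobial cathelicidin, read 10.07, 10.26 and 10.05 against 11.22, 11.04 and 11.14, a fold of 2.01 (adjusted p = 0.0235). Elane, neutrophil elastase, differed by -0.84 and Fcnb, the lectin ficolin B, by -0.64. The Camp call was lost whichever of the 6 arrays was left out (adjusted p = 0.0522 to 0.0904), that of Elane without 129S2 replicate 2 (0.0556) or C57BL/6J replicate 2 (0.0645), and that of Fcnb without 129S2 replicate 2 (0.0519) or, by its size of -0.56, C57BL/6J replicate 3. Without a single array, 2 or 3 genes of this list were called: 2 without 129S2 replicate 2 or C57BL/6J replicates 2 or 3. With the replicate number as a block 6 were called. S100a8 and S100a9, the calprotectin subunits, were named after their values were seen: their levels differed by -1.20 and -1.31 and were not called (adjusted p = 0.0878 and 0.0813). The mean level of the list was 9.55 to 9.93 in 129S2, 10.45 to 10.53 in C57BL/6J and 8.53 to 9.57 in DBA/2J, so that a DBA/2J array exceeded a 129S2 array. Of 5 tested mast cell and basophil genes, the protease Mcpt8 was lower by 0.68 on the log2 scale (difference -0.68, adjusted p = 0.00294), with 129S2 under the set median. Vpreb1, the surrogate light chain of precursor B cells and the only called gene of 6 of that lineage, differed by -0.67, a call lost without 129S2 replicate 2 or 3 or C57BL/6J replicate 1 (0.058 to 0.0899) or with the spread of all 36 liver arrays (0.0752). Cd48, a marker that separates progenitors from stem cells, was the called gene among 18 of the blood stem and progenitor list and differed by -0.76 ± 0.14 (adjusted p = 0.00844).

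**Figure D3:**
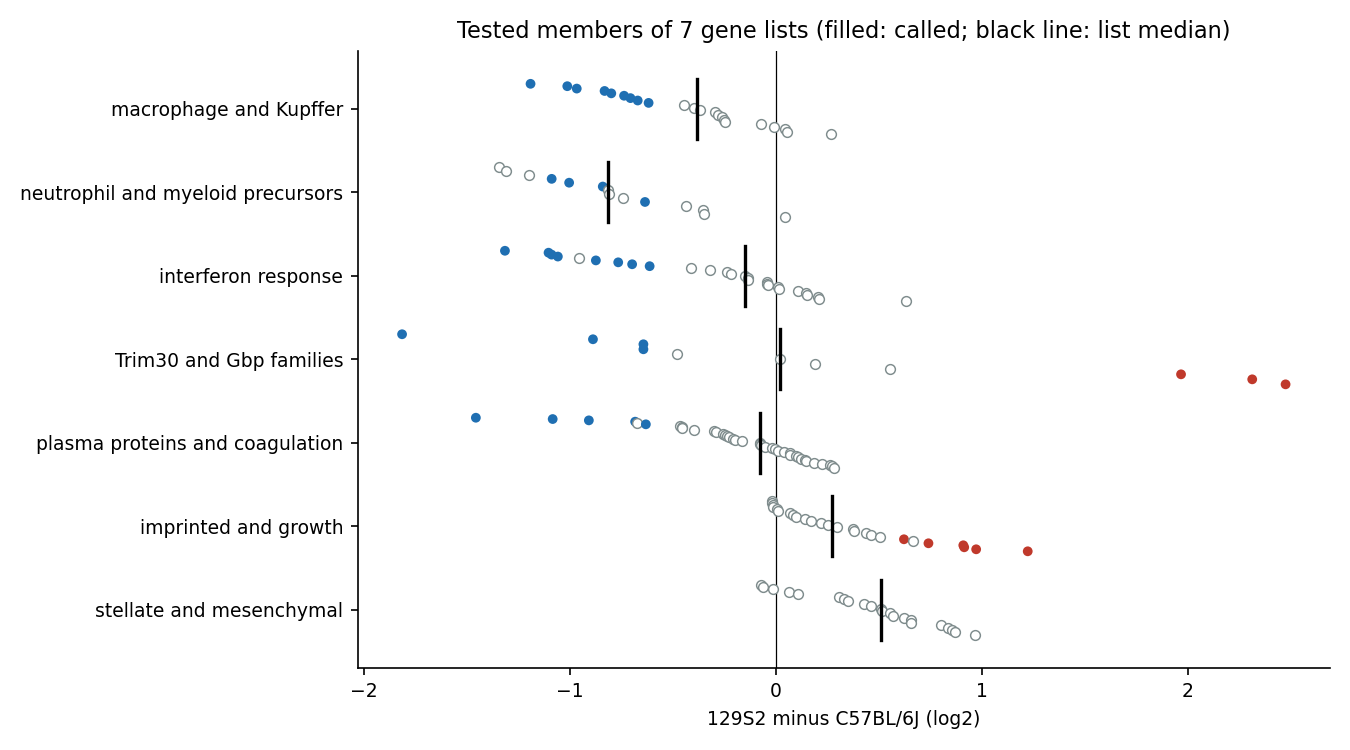
Difference between 129S2 and C57BL/6J (log2) for the tested members of 7 gene lists; each point is a gene, filled points are called (red higher, blue lower in 129S2) and black lines are list medians. The macrophage list lies mostly below 0 with a median of -0.38 and 9 genes called lower, while the stellate and mesenchymal list lies mostly above 0 with a median of 0.51 and no gene called.

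None of 25 erythroid genes was called, where 3.94% of all genes were, and their median was -0.04. The members with the highest levels, Cd24a and Car2, differed by -0.05 and -0.08. Their 129S2 and C57BL/6J arrays read 14.33 to 14.40 and 13.97 to 14.12. Close to the highest value of the set, 14.92, a difference may not be seen. Hbb-b2, an adult beta-globin, was the only called gene of 5 tested globins, reading 12.94, 12.66 and 12.65 against 11.76, 11.86 and 11.45, a difference of 1.06 ± 0.13 (adjusted p = 0.000587). As the mean of its probe sets it differed by 0.51, under the fold required. Beta-globin copies are near-identical, so their probe sets may share signal. Hbb-y and Hbb-bh1, the embryonic beta-globins, differed by 0.12 and 0.01 and were not called. Of 23 genes of haem synthesis and red-cell iron, Alad, the second enzyme of haem synthesis, was higher by 0.64 ± 0.07 (adjusted p = 0.000219) with 0.80 in its other probe set. Tspo2, an erythroid cholesterol-binding protein, was lower, reading 10.30, 10.28 and 10.41 against 11.54, 11.54 and 11.51, a difference of -1.20 ± 0.09 (adjusted p = 2.78e-05).

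Of 17 tested megakaryocyte genes 1 was called higher and 1 lower, against 1.73% and 2.21% of all genes. Tubb1, the platelet beta-tubulin, read 12.36, 12.28 and 12.37 against 10.65, 10.57 and 10.71, a difference of 1.69 ± 0.14 (adjusted p = 5.54e-05), and the DBA/2J mean was lower still at 9.77. Clec1b, the platelet receptor for podoplanin, differed by -0.98 ± 0.15 (adjusted p = 0.00233). Of the 17 tested genes 2 had a difference above 0, and the median was -0.30, where that of all genes was 0.04. Of 35 genes of the cell cycle a single gene was called, a count near the 3.94% of all genes called. This gene, Pttg1, securin, read 13.14, 13.13 and 13.07 against 11.82, 11.79 and 11.76, a difference of 1.33 ± 0.07 (adjusted p = 1.73e-06). Both other Pttg1 probe sets were called higher, with a median difference of 1.52.

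**Figure D4:**
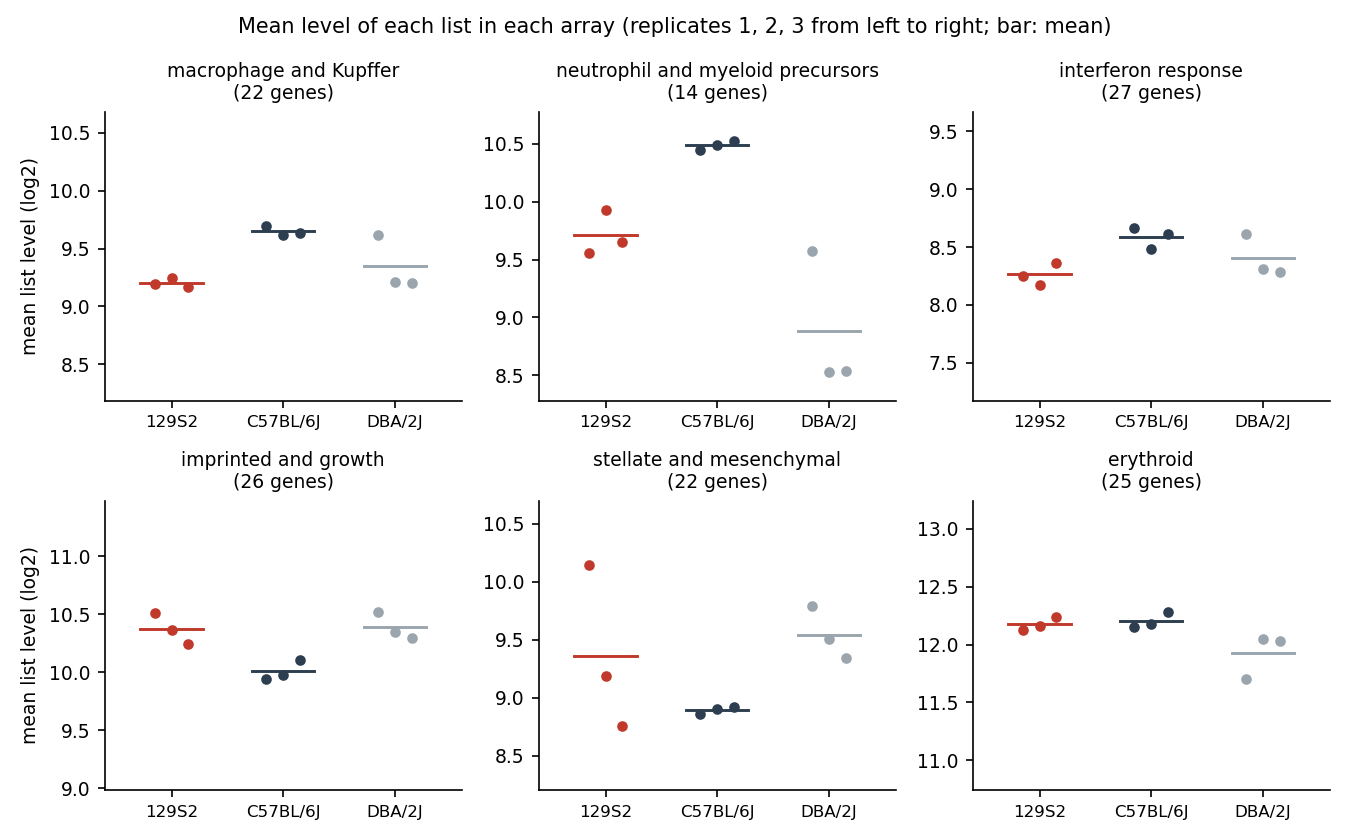
Mean level (log2) of 6 gene lists in each of the 9 arrays, replicates 1 to 3 from left to right in each strain, bars marking strain means; every panel spans the same number of log2 units. The macrophage list separates 129S2, at 9.17 to 9.24, from C57BL/6J, at 9.62 to 9.70. In the stellate and mesenchymal list 129S2 replicate 1 is highest at 10.14, with DBA/2J at 9.34 to 9.79.

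Mesenchymal genes were spread widely between the 129S2 replicates. Of 23 listed stellate and mesenchymal genes 22 were tested, none was called, 2 did not overlap between strains (32.0% of all genes), and the median was 0.51. With the replicate number as a block 1 was called higher. Col3a1, a fibrillar collagen, read 13.81, 11.63 and 11.11 in 129S2 and 11.46, 11.52 and 11.71 in C57BL/6J, a difference of 0.62 ± 0.53 (adjusted p = 0.511), and the strains overlapped. Without 129S2 replicate 1 the Col3a1 difference was -0.19 (adjusted p = 0.542). Col1a1, chosen after its values were seen, read 12.39, 9.06 and 8.27 against 9.03 to 9.09, a difference of 0.85 that became -0.39 without that array. Without 129S2 replicate 1 the median of the list was 0.01, and Lhx2, a transcription factor of stellate cells named after its value was seen, was called (0.79, adjusted p = 0.0295, against 0.57 with all arrays). Reln, made by hepatic stellate cells, differed by 0.35 (adjusted p = 0.166), and 129S2 replicate 1 held its lowest 129S2 level at 11.77.

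Of 32 listed imprinted and growth genes 26 were tested; 6 were called higher in 129S2 and none lower, against 1.73% and 2.21% of all genes. In this list 22 had a difference above 0, and the median was 0.27. Necdin (Ndn), a growth-restraining protein expressed from the paternal allele, read 10.60, 9.78 and 9.32 against 8.83, 8.61 and 8.59, a difference of 1.22 ± 0.28 (adjusted p = 0.0221), the highest value being that of 129S2 replicate 1, without which it was 0.87 (0.0273). Its call was lost without 129S2 replicate 2 or any C57BL/6J array (adjusted p = 0.0545 to 0.0809) and with the mean of its probe sets (0.0611). Nnat, neuronatin, read 8.60, 8.39 and 8.63 against 7.20, 7.78 and 7.74, a difference of 0.97 ± 0.18 (adjusted p = 0.00858), and Igfbp2, a carrier of insulin-like growth factors, differed by 0.91 ± 0.13 (adjusted p = 0.00208), with C57BL/6J under the set median. Impact, a regulator of translation, differed by 0.91, but its other probe set by -0.39, and their mean of 0.11 was not called (adjusted p = 0.358). Igfbp3 differed by 0.74 and Peg3, a paternally expressed zinc finger gene, by 0.62. The Igfbp3 call was lost without any array but C57BL/6J replicate 3 (0.0511 to 0.118) and with quantile normalization (0.0588). That of Peg3 was lost without 129S2 replicate 1 (difference 0.46) or 2 or C57BL/6J replicate 1 or 2 (0.0745 to 0.127). The Peg3 call was lost too with the mean of its probe sets (0.17) and with the spread of all 36 liver arrays (0.0674). The count was 4 without 129S2 replicate 1 and 3 without 129S2 replicate 2 or C57BL/6J replicates 1 or 2. With the replicate number as a block it was 7. The median without 129S2 replicate 1 was 0.18. How far mesenchymal cells account for these genes was not tested.

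Alb and Afp lay close to the highest value of the set, 14.92, on every array, where a difference may not be seen, so their levels are not compared. Of 21 tested genes of the hepatoblast list Gpc3 alone, a cell-surface proteoglycan that restrains growth, was called higher (0.75; adjusted p = 0.0132), a call lost without C57BL/6J replicate 1 (0.0643) or 2 (0.0548). Of 39 tested genes for plasma proteins and coagulation 5 were lower and none higher, against 2.21% and 1.73% of all genes, while the median was -0.08. Serpina1c, an alpha-1-antitrypsin, read 12.28, 11.84 and 12.19 against 13.52, 13.55 and 13.62, a difference of -1.46 ± 0.14 (adjusted p = 0.000138). Hp, haptoglobin, differed by -1.08, F9, coagulation factor IX, by -0.91 ± 0.10 (adjusted p = 0.000268), Mbl1, a mannose-binding lectin, by -0.68 ± 0.10 (0.00199) and Crp, C-reactive protein, by -0.63 ± 0.10 (0.00323). The Hp call was lost without 129S2 replicate 2 (0.0776) or C57BL/6J replicate 1 (0.0764). Serpina1 genes are near-identical copies, so their probe sets may share signal.

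In the urea cycle, Cps1 and Arg1 moved in opposite directions. Arg1, the arginase that releases urea, read 7.32, 7.03 and 7.01 against 8.75, 8.66 and 8.10, a difference of -1.39 ± 0.20 (adjusted p = 0.00203), while Cps1 was higher by 3.31. The other tested genes of the list were not called: Nags differed by -0.46, Otc by -0.36, Asl by 0.20, Glul by 0.17, and the carriers Slc25a13 and Slc25a15 by 0.43 and 0.12. The 3 arrays of each strain did not overlap in any of the 8 tested genes, against 32.0% of all genes. The DBA/2J means were 9.07 for Cps1 and 6.57 for Arg1.

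Of 34 tested genes of xenobiotic metabolism 3 were lower and none higher, against 2.21% and 1.73% of all genes, with a median of -0.02. They were Ugt2b5, a glucuronosyltransferase (-1.20 ± 0.08, adjusted p = 1.03e-05), Gstm6, a glutathione transferase (-1.02 ± 0.10, 0.000113), and Cyp2c29, a cytochrome P450. Cyp2c29 differed by -0.63 (0.00507), without 129S2 replicate 2 it differed by -0.58, under the fold required, and with the spread of all 36 liver arrays it was not called (0.379). Of 15 tested genes of bile acid synthesis and transport 2 were lower: Abcc2, the canalicular exporter of conjugates, by -1.27 ± 0.20 (adjusted p = 0.00323), and Amacr, the racemase of bile acid intermediates, by -1.23 ± 0.13 (0.000209). Got1, an aminotransferase, was called higher at 0.70 among 13 genes of gluconeogenesis and amino acid breakdown, a call lost without 129S2 replicate 2 or 3 or C57BL/6J replicate 1 or 2 (0.0592 to 0.0808) or with the spread of all 36 liver arrays (0.322). Hfe, the partner of transferrin receptors in iron sensing, differed by -0.81 ± 0.13 (0.00473) as the called gene of 15 for iron and metals. Clec4g, a lectin of sinusoidal endothelium and the called gene of 19 for that cell type, differed by -1.01 ± 0.10 (0.000116). Its second probe set differed by -0.17 and was not called.

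Both Jun and Egr1, immediate early transcription factors, were higher. Jun, a subunit of AP-1, read 9.67, 8.50 and 9.04 against 7.32, 7.37 and 7.58, a difference of 1.64 ± 0.23 (adjusted p = 0.00156). Without 129S2 replicate 1 the Jun difference was 1.34 (adjusted p = 0.000585). A second Jun probe set differed by 0.62 and was not called. Egr1, a zinc finger factor induced by serum, read 10.25, 10.14 and 10.26 against 9.12, 9.12 and 8.97, a difference of 1.15 ± 0.11 (adjusted p = 0.000122), not called with the spread of all 36 liver arrays (0.0936). Ier3, another early-response gene, was lower, with a difference of -1.14 ± 0.11 (adjusted p = 0.000149). Of the 24 tested genes of this list 2 were called higher and 1 lower, against 1.73% and 2.21% of all genes. In 19 the difference was above 0, and the median was 0.13. That median lies within the quartiles of all genes tested, -0.09 and 0.17.

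Segments known to vary in copy number or sequence among laboratory mice had 9 genes higher and 7 lower of 31 tested (83 listed), against 3.94% called over all genes. Ctse, Gbp2b, Hddc3, Rpgrip1 and Ang, given above, and Zfp874a belong to this list. It was drawn up with results of these data known, so its count is no independent support. Zfp874a, also a numbered zinc finger gene, differed by -2.65 ± 0.11 (adjusted p = 3.33e-07), with 129S2 under the set median. Of 221 numbered zinc finger genes 3 were higher and 10 lower, against 1.73% and 2.21% of all genes; the higher count is near that share. Zfp39 read 6.98, 6.80 and 7.11 against 8.64, 8.84 and 8.85, a difference of -1.81 ± 0.10 (adjusted p = 2.5e-06), and Zfp386, Zfp931, Zfp943 and Zfp758 differed by -1.43, -1.34, -1.30 and -1.05. The 3 higher became 1 without C57BL/6J replicate 1 and 2 without 129S2 replicates 1 or 2 or C57BL/6J replicates 2 or 3. Rps6, a protein of the small ribosomal subunit, was the only called gene of 45 ribosomal proteins, with a difference of -1.15 ± 0.12 (adjusted p = 0.000224). Cela1, an elastase, was lower by 0.69 on the log2 scale (difference -0.69, adjusted p = 0.00226), as 1 of 4 tested genes of the pancreas list. No gene was called among those tested for cholesterol and lipid synthesis (28, median 0.26, 24 above 0), fatty acid oxidation (21), oxidative phosphorylation (89), heat shock (22), antioxidants (16), DNA methylation (15), the clock (14), T and NK cells (6), cholangiocytes (6), or gut, muscle, neural and kidney, adrenal or lung tissue (5, 6, 5 and 5). With the replicate number as a block 1 gene of cholesterol and lipid synthesis was called higher.

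Some called genes lay side by side in the genome. Of the 477, 50 genes (10.5%) formed 24 runs of neighbours called in the same direction, 7 higher and 17 lower, taken from gene order in the RefSeq annotation with starts within 1 Mb. Only 2 runs had 3 genes: C1qa, C1qb and C1qc, and Parp14, Dtx3l and Parp9, which encode ADP-ribosyltransferases and their ligase partner. Parp9 differed by -0.94 ± 0.11 (adjusted p = 0.000583), Parp14 by -0.61 and Dtx3l by -0.60. The Parp14 call was lost whichever of the 6 arrays was left out (0.0547 to 0.12), and that of Dtx3l without 129S2 replicate 2 or 3 or C57BL/6J replicate 1 (0.0528 to 0.0792) or, by its size of -0.57, C57BL/6J replicate 3. As the mean of its probe sets Dtx3l differed by -0.46, under the fold required. Pairs of genes with related products were Igtp and Irgm2, Fcgr3 (-1.01) and Fcgr4 (-1.03), Lyz2 and Lyz1 (-0.86), Ctsg and Mcpt8, Ifitm3 and Ifitm6 (-1.42), Serpina1c and Serpina1b (-0.77), Crp and Apcs (-0.85), the pentraxins, and Pzp (-0.88) with A2ml1 (-0.78), the alpha-macroglobulins. Lyz1 lost its call without C57BL/6J replicate 1 (0.0507). Related neighbours can share probe signal. Other pairs joined unrelated genes: Ap1s3 (1.26) and Wdfy1 (1.18), Rhobtb3 (0.97) and Glrx (0.70), Hdhd3 (0.86) and Alad, and Nmi (-1.08) and Rbm43 (-0.64).

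DBA/2J, the third strain of the set, shares the C57BL/6J arrays with a comparison against C57BL/6J and the 129S2 arrays with a comparison against 129S2, so its values are given side by side only. Of the 477 genes, 240 were also called between DBA/2J and C57BL/6J with the difference on the same side. Between 129S2 and DBA/2J, 107 were called in the same direction as against C57BL/6J. Cps1 differed by 3.31 in 129S2 and by 1.15 in DBA/2J from C57BL/6J, Irgm2 by 2.47 and 2.39, Igtp by 1.97 and 1.70, and Gbp2b by 2.31 and 0.11. Among lower genes Redrum differed by -4.88 in 129S2 and -0.75 in DBA/2J, Rpgrip1 by -2.62 and -1.93, and Serpina1c by -1.46 and -2.64.

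The same strains were compared at later stages of liver and in E14.5 brain to see which differences belonged to this stage. Each set was normalized apart, so a difference in scale between sets could change these values. Called genes between 129S2 and C57BL/6J numbered 347 at P1 (2.85% of those tested), 616 at P7 (5.0%), 1023 at P90 (8.85%) and 124 in E14.5 brain (1.08%). Called in the same direction in E14.5 liver and in the other set were 122 genes at P1 (25.6% of the 477 and 35.2% of the P1 genes), 177 at P7 (37.1% and 28.7%), 141 at P90 (29.6% and 13.8%) and 55 in brain (11.5% and 44.4%). Not all of the 477 passed the filter in each set: 439, 435, 373 and 303 did, and of these the shares were 27.8%, 40.7%, 37.8% and 18.2%. In the opposite direction were 1, 2, 14 and 0 genes. By interaction tests over 18 arrays each, the difference in E14.5 liver differed from that at P1 in 226 genes (1.76% of those tested), from that at P90 in 1256 (9.49%) and from that in brain in 251 (1.90%). These included 94 (19.7%), 246 (51.6%) and 157 (32.9%) of the 477 genes.

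The Irgm2 and Igtp differences in E14.5 liver exceeded those at P1, at P90 and in E14.5 brain. Irgm2 differed by 2.47 at E14.5, 0.47 at P1, -0.85 at P7 and -0.98 at P90, where it was called lower (adjusted p = 0.0403). In E14.5 brain it differed by -0.31 and did not pass the filter. Its interaction was 2.01 ± 0.25 against P1 (adjusted p = 0.00029), 3.46 ± 0.35 against P90 (2.67e-06) and 2.79 ± 0.19 against brain (2.63e-07). Igtp differed by 1.97, 0.35, -1.03 and -0.28 over the 4 stages and by -0.09 in brain, with interactions of 1.62 ± 0.39 (0.0459), 2.25 ± 0.24 (5.45e-06) and 2.06 ± 0.16 (6.87e-07). The Igtp call against P1 was lost whichever of the 6 arrays was left out (adjusted p = 0.0722 to 0.104), with the replicate block (0.0503), with no filter on dim genes (0.0517) and with all 36 liver arrays (0.103). Gbp2b differed by 2.31, 1.57, 0.91 and -0.49, and its interaction with P1 was 0.74 ± 0.19 (0.051). Of 12 genes of the Trim30 and Gbp list tested at P90, 7 were lower and none higher in 129S2, where 5.25% of all genes were lower. Trim34a was called lower at all 4 stages, with differences of -1.82, -2.43, -2.38 and -3.09. Interferon response genes called lower numbered 8 of 27 at E14.5, 2 of 30 at P1, 4 of 32 at P7 and 16 of 31 at P90, while the shares of all genes called lower were 2.21%, 1.61%, 2.78% and 5.25%. In this list 1 gene was called higher at each of P1, P7 and P90, where 1.24%, 2.21% and 3.61% of all genes were. By the interaction tests 3 of 31 list genes had a lower difference at E14.5 than at P1 and none a higher one. Over all 12830 genes tested, 116 had a lower and 110 a higher one. Against P90 6 of 32 list genes had a higher and 1 a lower difference, as had 767 and 489 of all 13233 genes. The lower count against P90 is near that share.

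Of the liver stages, Cps1 was called at E14.5 alone: its difference was 3.31 there and -0.07, 0.27 and 0.02 at P1, P7 and P90, with an interaction of 3.38 ± 0.29 against P1 (adjusted p = 5.31e-06). At P1 its level was 13.74 in 129S2 and 13.81 in C57BL/6J, so high that a difference may not be seen. Of 45 plasma protein genes tested against P1, 3 had a lower difference at E14.5 and none a higher one (1.76% of all genes in both directions). Serpina1c differed by -1.46 at E14.5 and -0.04 at P1, an interaction of -1.42 ± 0.16 (0.000157), and Mbl1 by -0.68 and 0.19 (-0.87 ± 0.19, 0.023), a call lost without 129S2 replicate 1 or C57BL/6J replicate 1 or 2 (0.0558 to 0.0718). Serpina1c already read 13.56 in C57BL/6J at E14.5, and whether its P1 level was too high to show a difference was not tested. Hp, F9 and Crp, called lower at E14.5, were not called against P1 (0.0581, 0.0793 and 0.068). Apcs, which is not on that list, differed by -0.85 and 0.07 (-0.92 ± 0.16, 0.00423). Pon1, the serum paraoxonase, was higher at E14.5 by 1.08 and differed by 0.19 at P1 (0.89 ± 0.13, 0.00131). Isg20 turned from -1.32 at E14.5 to 1.02 at P1, where it was not called, with an interaction of -2.33 ± 0.31 (0.000502). Timd2 differed by -2.27 at E14.5, -0.04 at P1 and 0.66 at P90 (-2.22 ± 0.31 against P1, 0.000717).

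Other differences were present in every set. Hddc3 differed by 2.25, 2.39, 2.43 and 2.59 over the stages of liver and by 2.01 in brain, and was called in all 5. Rpgrip1 differed by -2.62, -2.20, -2.53 and -4.57 and by -2.59 in brain, Amacr by -1.23, -1.18, -0.76 and -1.45 and by -1.28 in brain, and Zfp386 by -1.43, -1.39, -0.71 and -1.66 and by -1.27 in brain, each called in all 5 sets. Ang was called lower in all 5 too, from -2.39 at E14.5 to -3.94 at P90. Pttg1 was called in opposite directions within liver, higher by 1.33 at E14.5 and lower at P90 (-2.30), with 0.43 and -0.07 between, and in brain it was higher by 1.67; its interaction against P90 was 3.63 ± 0.10 (9.8e-14).

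Cell-type lists were set beside their values at the other stages. Macrophage genes called lower numbered 9 of 22 at E14.5, 7 of 24 at P1, 11 of 24 at P7 and 17 of 23 at P90. The shares of all genes called lower were 2.21%, 1.61%, 2.78% and 5.25%. The list medians were -0.38, -0.49, -0.64 and -0.71. At each of P7 and P90 1 macrophage gene was called higher, where 2.21% and 3.61% of all genes were. By the interaction test 1 of 24 macrophage genes differed from P1, against 1.76% of all genes. Against P90 5 of 24 had a higher and 1 a lower difference at E14.5, where 9.49% of all genes differed in either direction. Neutrophil genes had a median of -0.81 at E14.5, 0.13 at P1, -1.28 at P7 and -1.01 at P90. Of these genes 4 of 14, 1 of 18, 14 of 19 and 4 of 7 were called lower, and 2 of 19 differed from P1 by the interaction test. Against P90 4 of 14 neutrophil genes had a lower difference at E14.5 and none a higher one. The mesenchymal list had medians of -0.06, 0.18 and -0.07 at P1, P7 and P90, beside 0.51 at E14.5 or 0.01 without 129S2 replicate 1, and none of 22 genes differed from P1.

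**Figure D5:**
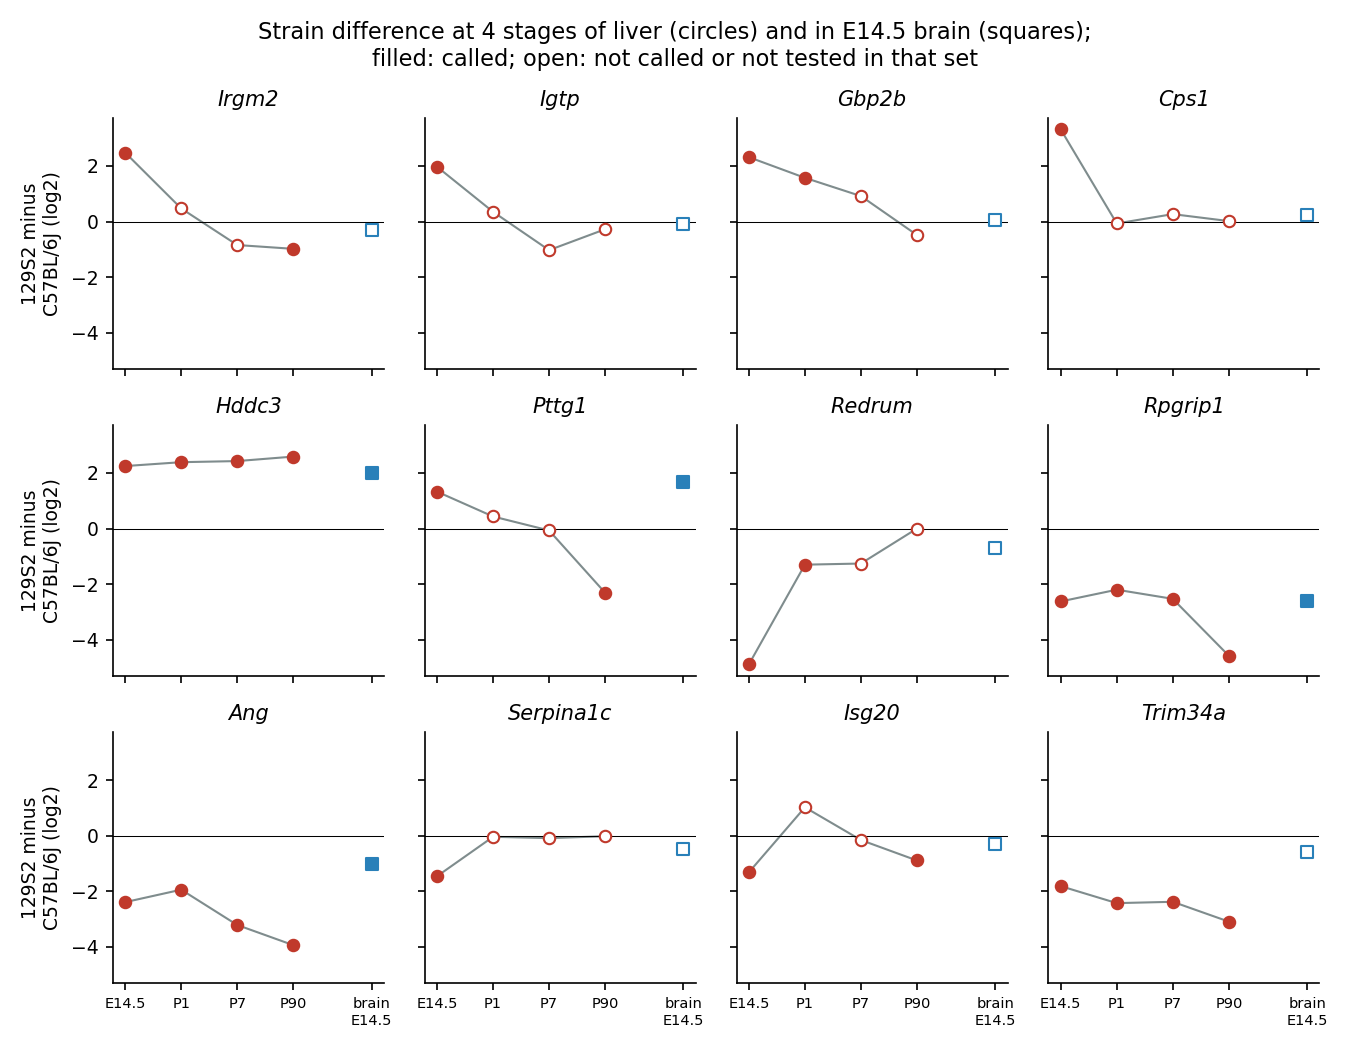
Difference between 129S2 and C57BL/6J (log2, vertical) in liver at E14.5, P1, P7 and P90 (circles) and in E14.5 brain (squares) for 12 genes named in the text; filled symbols are called, open ones are not called or not tested in that set. Irgm2, Igtp and Cps1 lie at 2.47, 1.97 and 3.31 at E14.5 and at 0.47 or below at the later stages, whereas Hddc3 stays between 2.01 and 2.59 in all 5 sets. At P1 the level of Cps1 was so high that a difference may not be seen.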

How the data were processed

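Total RNA of whole fetal liver had been labelled with biotin and hybridised to Affymetrix arrays, per the labels' protocols. The authors deposited log2 values for 45101 probe sets, summarised by RMA per the submitters' processing notes; the version is not given in the sources used here. Arrays of the same tissue and stage share 2.25 to 3.30% of their values to the last digit and arrays of different sets none, so the 9 arrays of E14.5 liver form a set that was normalized together. Probe sets were named from GEO's platform annotation: 34958 have 1 symbol, 932 several and 9211 none, and those with several or none were left out of the gene counts. No symbol needed updating. Where several probe sets carried a symbol, that with the greatest average on these 9 arrays stood for the gene. A gene was tested where the higher of the 129S2 and C57BL/6J means exceeded the set median. Arrays give no depth; their number limits the precision.

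A mean per strain was fitted to the 9 arrays with limma 3.58.1 in R 4.3.3 (lmFit, eBayes, two-sided, Benjamini-Hochberg over all 12114 genes). Interactions with P1 liver, P90 liver and E14.5 brain were fitted over 18 arrays each. On simulated data for 129S2 minus C57BL/6J with 12114 genes, the fit called 42% of genes changed 1.5-fold, 88% at 2-fold, 100% at 3-fold and 98% at 4-fold, and 1 of 11914 unchanged genes. The simulated noise was normal and independent between genes and arrays. It lacked the deviations that real arrays share, so these rates need not hold for the real data. Same-numbered 129S2 and C57BL/6J arrays deviated together (correlations of deviations 0.25, 0.41 and 0.26, against -0.22 to -0.058 for unlike numbers). Those of C57BL/6J and DBA/2J did so less evenly (0.062, 0.48 and -0.034). The labels do not say what the numbers mark. The reported fit is therefore unpaired, and the number entered as a block in an alternative only. Named genes are the 14 highest and 14 lowest called genes without overlap, up to 6 called members of each list, the 5 highest and 5 lowest of each interaction, and genes in runs of called neighbours; names that look like clones are not printed except in runs. The members and lists were chosen with earlier results of these data known. Neighbouring genes and the windows before gene starts were taken from RefSeq tables. Alternatives covered the filter on dim genes, the choice of probe set, normalization, array weights, the arrays in the fit, the fold minimum, the replicate number as a block and leaving out each array.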

Additional observations from a re-analysis of the deposited data

Results flagged for a closer look

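For 30 results a test found that the difference between 129S2 and C57BL/6J in E14.5 liver was not the same as in another set; each value below is the E14.5 liver difference minus that of the other set on the log2 scale, the 5 highest and 5 lowest of each comparison. All have a limma adjusted p under 0.05 over all genes tested, and no explanation was weighed. With only the 12 arrays of the 2 strains in the fit, 9 of the results against brain kept their call and 1 lost it.

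Against P1 liver, the highest values belonged to Cyp2b9 (4.09), a cytochrome P450, and Gzma (3.48), a protease of cytotoxic cells. At E14.5 these genes differed by -0.21 and -0.23, but both strains lay under the set median there, where a difference may not be seen. At P1 129S2 was lower (-4.31 and -3.71). Cps1 (3.38), Ccnb1ip1 (3.06) and Tmem184a (2.48) were higher in 129S2 at E14.5, and at P1 they differed by -0.07, 2.01 and 0.70. The P1 level of Cps1 was so high that a difference may not be seen. At the lower end, Redrum (-3.58) differed by -4.88 at E14.5 and -1.30 at P1. Rbp2 (-2.49), a retinol carrier, and Cyp2c50 (-2.34) differed by 0.35 and 0.05 at E14.5 and by 2.85 and 2.39 at P1. Cyp2c50 lay under the set median in both strains at E14.5. Meiob (-2.81), a meiotic DNA-binding protein, and Isg20 (-2.33) had opposite signs. Meiob read 4.59 in 129S2 and 5.59 in C57BL/6J at E14.5, both under the set median, and differed by 1.81 at P1. Isg20 differed by -1.32 and 1.02.

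Against P90 liver, most of the genes were at or near the background of E14.5 liver in both strains. Nlrp12 (5.64), Moxd1 (5.45), Ugt2b38 (5.36) and Serpina12 (4.55) differed by -0.08, 0.10, -0.01 and -0.06 at E14.5 and by -5.72, -5.35, -5.36 and -4.60 at P90. Cyp2c39 (-5.57) and Cyp4a14 (-4.94), cytochromes P450, and the clock output gene Dbp (-4.58) differed by -0.05, 0.17 and 0.67 at E14.5 and by 5.51, 5.11 and 5.25 at P90. Cox6b2 (-4.46) was well expressed in both strains at E14.5, at 10.68 and 10.87, and differed by 4.27 at P90. Ccnb1ip1 (4.57) and Redrum (-4.88) were the named genes whose difference lay at E14.5, with 0.50 and 0.00 at P90. At P90 both genes lay under that set's median of 5.05 in both strains, where a difference may not be seen.

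Against E14.5 brain, the values were 4.48 for Ccnb1ip1, 3.17 for Tmem184a, 3.09 for Cps1 and 2.9 for Ctse, all higher in 129S2 liver, and -4.17 for Redrum, -3.57 for Ift140, -2.85 for Hesx1 and -2.37 for C1qtnf12, all lower in it. The Ctse value holds for its main probe set, and the second differed by -2.78 in liver. In brain Ccnb1ip1, Tmem184a, Cps1, Redrum and Hesx1 lay under that set's median of 7.28 in both strains, where a difference may not be seen. Rmst (4.28), a long non-coding RNA of neural cells, differed by -0.04 in liver, where both strains lay under the set median, and by -4.32 in brain. Hbb-bh1 (-2.77), an embryonic beta-globin, differed by 0.01 in liver, where it read 12.21 and 12.20, and by 2.78 in brain.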

How the results depend on the processing

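Of the 126 named genes called, 87 kept their direction and call under every alternative in which they were tested, and 96 whenever a single array was left out. The changed fold minimums were not part of this count, and a gene that failed a stricter filter was not counted as lost. The 477 genes became 1187 (677 higher, 510 lower) with no fold minimum and 141 with a 2-fold minimum (52 and 89). The 209 higher genes became 132 with a filter at the 75th percentile and 139 with the mean of all probe sets of a gene. Without single arrays the count was 366 to 532, with 149 to 253 higher and 217 to 279 lower; the interactions gave 143 to 226 genes for P1, 1135 to 1395 for P90 and 180 to 245 for brain. The P1 interaction gave 433 genes with all 36 liver arrays in the fit. With the replicate number as a block, 512 genes were called, among them all 477. With it the interactions gave 201, 1316 and 249 genes, and 49 of 226, 9 of 1256 and 37 of 251 genes lost their call. For liver and brain arrays of the same number, the correlations of deviations were -0.21 to -0.037 in 129S2. They were 0.22 to 0.37 in C57BL/6J and 0.15 to 0.24 in DBA/2J. Whether such arrays came from the same animal was not tested. Paip1 (-0.74) turned to 0.67 with the mean of its probe sets (adjusted p = 0.0103), and Prdx2, at 0.00 and not called, to -1.28 (0.000212); the cause was not tested. Quantile normalization moved the median of all genes to 0.01. The limits are 3 arrays a strain, whole-tissue RNA, and the platform's annotation. Values under the set median carry background, and 129S2 replicate 1 stood apart from the other 129S2 arrays in mesenchymal genes.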

Other observations

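Probe sets without a single gene symbol, 10143 in number, were tested apart: of 3156 that passed the same filter 147 were called (4.66%), 45 higher and 102 lower in 129S2, with differences from -4.84 to 4.33. A further 26 of the 477 called genes carry clone-like names and are counted but not named.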
